A study of Mus musculus with 6 samples.

Results

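The ligands and receptors of the tumour necrosis factor (TNF) family were followed in the hearts of Mc4r KO mice and WT mice. The genes were taken by name and not by level: every protein-coding gene whose symbol begins with Tnfsf or Tnfrsf, together with Tnf, Fas, Fasl, Cd27, Cd40, Cd40lg, Ltbr, Lta, Ltb, Ngfr, Eda2r, Edar and Relt. This gave 45 of the 54532 genes in the deposited table, of which 28 encode receptors and 17 encode ligands. Mc4r encodes the melanocortin 4 receptor, which acts in the brain to restrain food intake, and the study asked what its loss does to the heart early in life. RNA came from mice aged 12 weeks on a C57B/6/N background, with homozygous Mc4r knockout and WT littermates bred from heterozygous parents, 3 mice and 3 libraries per group. The study's discussion describes the knockout mice as male, and the labels name no treatment. The knockout came from a purchased line and was not restricted to the heart.

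The tissue is given as heart by 1 label and as muscle by another, and the study's text names the left ventricle. All 9 cardiomyocyte marker genes were detected, with a summed level of 12840 to 13720 FPKM (fragments on a gene, scaled to its length and by a factor for its library) in WT hearts and 15630 to 17200 FPKM in Mc4r KO hearts. The libraries held between 14691076 and 16047003 reads on genes. For Mc4r itself 2 reads were found, both in WT replicate 3, so its level in heart cannot check the genotype labels. Principal components were taken over the tested genes with a mean of at least 1 FPKM. WT replicate 3 stood apart from the other WT libraries on the second component. On the first it lay at -3.46, between WT replicates 1 and 2 (-34.2 and -27.9) and the Mc4r KO libraries (17.5 to 26.8). Its nearest library, by correlation over all tested genes, was Mc4r KO replicate 1. The mitochondrial share of summed FPKM was 59.3%, 57.4% and 47.1% in WT replicates 1, 2 and 3, and lay between 43.0% and 46.6% in the Mc4r KO libraries. Every Mc4r KO library had a lower share than every WT library, so the share and the genotype cannot be told apart here, also not by a covariate. A fit with this share as a covariate and 1 with scaling outside the mitochondrial chromosome are given below. The part of the share in the results was otherwise not tested.

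TNF family ligands are mostly made as membrane proteins that assemble in trimers, and many can be cut off to act at a distance. Their receptors share cysteine-rich repeats outside the cell. Receptors with a death domain inside the cell can recruit FADD and caspase 8 and start apoptosis, receptors without one bind TRAF adaptors and activate NF-kappaB and MAP kinases, and decoy receptors bind a ligand without passing on a signal. In the heart, TNF itself is known as a cytokine of injury and failure that depresses contraction, and the TWEAK receptor Tnfrsf12a (Fn14) is known to be low in healthy tissue and induced after injury.

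The hearts held far more receptor than ligand transcript per unit length. The receptors summed to 61.4, 66.3 and 67.7 FPKM in the WT libraries and to 85.7, 101 and 86.0 FPKM in the Mc4r KO libraries. The ligands summed to 13.2, 11.9 and 11.6 FPKM in WT and to 12.5, 9.06 and 7.62 FPKM in Mc4r KO. Of the 45 genes, 11 had a mean of at least 1 FPKM over the 6 libraries, and these were 9 receptors and 2 ligands. Another 20 lay between 0.1 and 1 FPKM, and 14 lay under 0.1 FPKM and were left out of the tests. Tnfsf4 had 0 reads in every library. Of the 45 genes 22, and of the 31 that were tested 8, had a mean of under 10 reads per library.

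**Figure D1:**
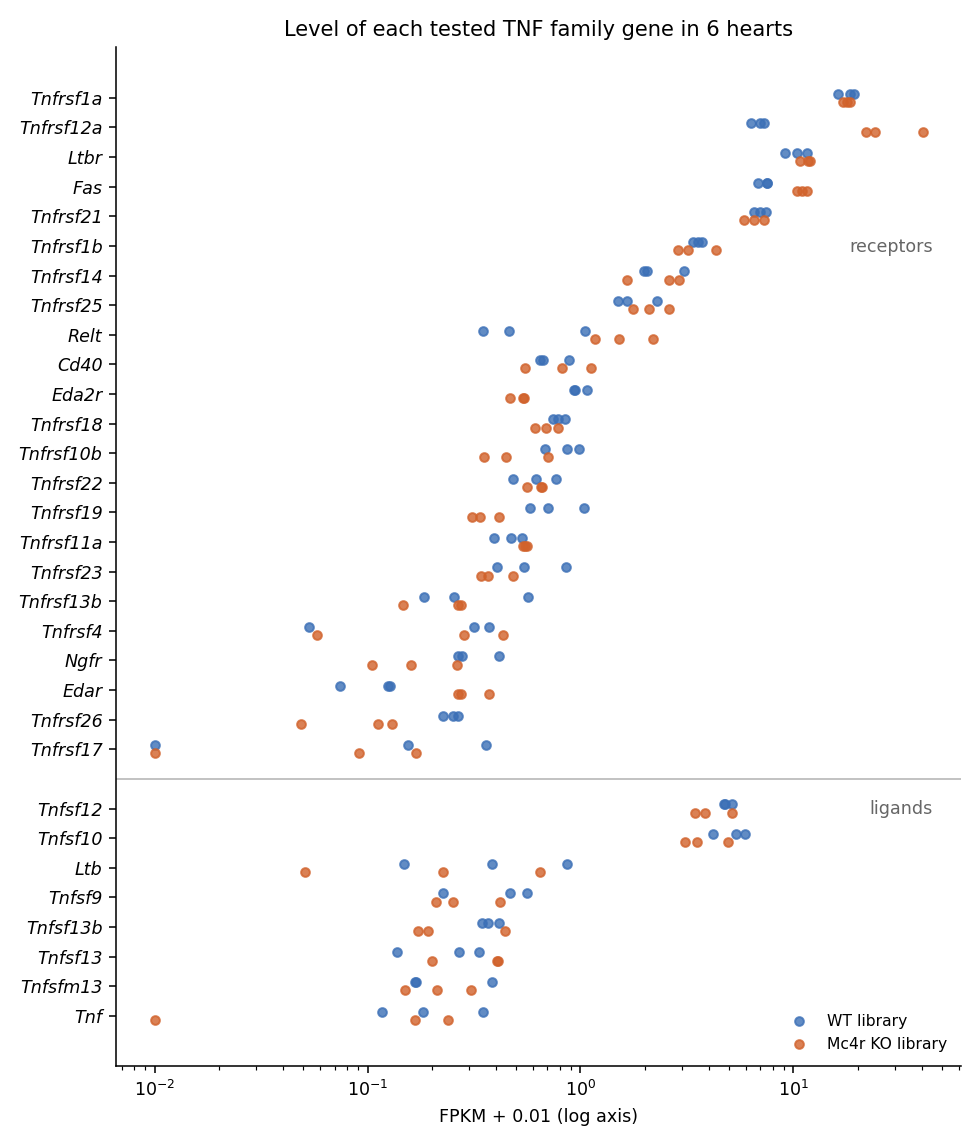
FPKM plus 0.01 on a log axis for the 31 tested TNF family genes, with 1 point per library, WT in blue and Mc4r KO in orange, and receptors above ligands in order of mean level. The Mc4r KO points of Tnfrsf12a lie between 22.0 and 40.4 FPKM and the WT points between 6.31 and 7.24 FPKM, while Tnfsf12 and Tnfsf10 are the 2 ligands above 1 FPKM.

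In the comparison of Mc4r KO with WT, 1 of the 31 tested genes was called higher and 0 were called lower by limma, where a gene was called if its adjusted p was under 0.05 and its log2 fold change passed 0.75 in either direction. Over all 18035 tested genes, 0.316% were called higher and 0.144% were called lower. An unadjusted p under 0.05 was found for 7 of the 31 genes, against 20.9% of all genes, and these were Tnfrsf12a, Fas, Relt and Edar on the higher side and Eda2r, Tnfrsf19 and Tnfrsf10b on the lower side. The 3 Mc4r KO libraries all lay above the 3 WT libraries for 5 of the 31 genes, against 14.1% of all genes, and all lay below them for 4, against 12.4%. With limma voom on the recovered reads, Tnfrsf12a was called higher and Eda2r was called lower, where the shares over all genes were 1.07% and 0.688%. The log2 fold change was above 0 for 12 genes and below 0 for 19, with a median of -0.09 beside -0.01 over all tested genes. All 7 genes with an unadjusted p under 0.05 were receptors, which made up 23 of the 31 tested genes, beside 8 ligands.

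Among the ligands, Tnfsf12 and Tnfsf10 made up between 76.9% and 86.0% of the summed level in each library. Tnfsf12 encodes TWEAK, the ligand of Tnfrsf12a, a cytokine of tissue repair. Its level was 5.15, 4.78 and 4.73 FPKM in WT replicates 1 to 3 and 5.15, 3.82 and 3.46 FPKM in Mc4r KO replicates 1 to 3. The groups overlapped in Mc4r KO replicate 1, and the log2 fold change was -0.25 (95% interval -0.62 to 0.11, limma adjusted p = 0.406). Of the exon bases of Tnfsf12, 48.2% are shared on the same strand with Tnfsfm13, a read-through gene that joins Tnfsf12 to Tnfsf13. How reads in shared bases were counted is not given in the sources used here, so the levels of these genes are uncertain.

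Tnfsf10 encodes TRAIL, which can trigger apoptosis through death receptors. It stood at 5.94, 5.38 and 4.18 FPKM in WT and at 4.91, 3.50 and 3.10 FPKM in Mc4r KO. WT replicate 3 lay below Mc4r KO replicate 1, so the groups overlapped, and the log2 fold change was -0.43 (95% interval -0.91 to 0.04, limma adjusted p = 0.277). This was the lowest adjusted p among the ligands.

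The other 6 tested ligands lay under 1 FPKM. Ltb, the membrane anchor of the lymphotoxin trimer, was at 0.374, 0.138 and 0.852 FPKM in WT and 0.637, 0.217 and 0.0411 FPKM in Mc4r KO, which corresponds to between 1 and 22 reads. Tnfsf9, a costimulatory ligand of T cells, was at 0.550, 0.216 and 0.455 FPKM in WT and 0.200, 0.408 and 0.242 FPKM in Mc4r KO. The values of both ligands were interleaved between the groups. Tnfsf13b (BAFF), the survival factor of B cells, was at 0.403, 0.335 and 0.359 FPKM in WT and at 0.431, 0.182 and 0.163 FPKM in Mc4r KO, with the Mc4r KO library of highest value above all WT libraries. Tnfsf13 (APRIL), which sustains plasma cells, was at 0.260, 0.128 and 0.323 FPKM in WT and 0.394, 0.402 and 0.190 FPKM in Mc4r KO, and it was the only tested ligand with a log2 fold change above 0 (0.35, 95% interval -0.55 to 1.26). The level of Tnfsf13 rests on 3 to 10 reads per library, and 60% of its exon bases are shared on the same strand with Tnfsfm13. Tnfsfm13 was at a mean of 0.230 FPKM in WT and 0.212 FPKM in Mc4r KO, and 76.7% of its exon bases overlap Tnfsf12 or Tnfsf13.

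Tnf, the founding cytokine of the family, was near the limit of detection in both groups. It had 4, 8 and 3 reads in WT and 4, 0 and 6 reads in Mc4r KO, or 0.173, 0.340 and 0.107 FPKM against 0.157, 0 and 0.228 FPKM. The groups overlapped, and the log2 fold change of -0.52 had a 95% interval from -1.87 to 0.83. This interval holds both falls and rises of Tnf, so the direction was not resolved at this depth. None of the 8 tested ligands had an unadjusted p under 0.05. The log2 fold change was below 0 for 7 of the 8, beside 9242 of all 18035 tested genes, and the median of the 8 was -0.40. Tnf, Tnfsf9, Tnfsf13, Tnfsfm13 and Ltb had means of 4.17, 6.83, 7.17, 7.50 and 9 reads per library. Tnfsf12 and Tnfsf13 share exon bases with Tnfsfm13, so the 8 are not separate measurements.

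The 9 ligands under the level needed for a test had few reads. Lta, the soluble lymphotoxin, had 2 reads in each WT library and 0 in each Mc4r KO library. Its mean level was under the 0.1 FPKM needed for a test. Fasl, the ligand of Fas, had 3 reads in Mc4r KO replicate 1 and 0 elsewhere. Cd40lg had 1 read in Mc4r KO replicate 1 and Tnfsf15 had 1 read in WT replicate 1. Tnfsf11 (RANKL), the driver of osteoclast formation, had 2 reads in WT replicate 3 and 2 in Mc4r KO replicate 1. Tnfsf18 had 1 read in each WT library and 2, 4 and 2 in Mc4r KO. Tnfsf14 and Tnfsf8 had at most 5 and 6 reads in a library, and their groups overlapped.

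Among the 23 tested receptors, Tnfrsf12a was the 1 that was called. Tnfrsf12a (chromosome 17, 23675445 to 23677468, minus strand, mm10) encodes Fn14, a small receptor without a death domain that is induced by growth factors and tissue damage. It was at 6.31, 7.24 and 6.93 FPKM in the WT hearts and at 22.0, 40.4 and 24.3 FPKM in the Mc4r KO hearts, from 172, 201 and 228 reads against 659, 1187 and 752 reads. Every Mc4r KO library lay above every WT library, and Mc4r KO replicate 2 lay well above its own group. The log2 fold change was 2.01 (SE 0.22, 95% interval 1.50 to 2.53, limma adjusted p = 0.0283), and the exact two-sided permutation test over the 6 libraries gave p = 0.1, the smallest it can give with 3 against 3. Without Mc4r KO replicate 2 the log2 fold change was 1.75 (adjusted p = 0.0249), and without WT replicate 3 it was 2.03 (adjusted p = 0.0133). The call was lost without WT replicate 1, WT replicate 2, Mc4r KO replicate 1 or Mc4r KO replicate 3, with adjusted p of 0.122, 0.0852, 0.0516 and 0.0856 and log2 fold changes from 1.96 to 2.19, and it was also lost with the mitochondrial share as a covariate (2.15, adjusted p = 0.206). The summed level of the cardiomyocyte markers was also higher in every Mc4r KO library than in every WT library, with 6 of the 9 markers at a log2 fold change above 0 and 3 below (Pln, Ttn and Tnni3), and its part in this difference was not tested. Actc1 made up most of the distance in this sum, with a mean of 5178 FPKM in WT and 7539 FPKM in Mc4r KO. No other annotated gene shares exon bases or words of 50 bases with Tnfrsf12a.

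**Figure D2:**
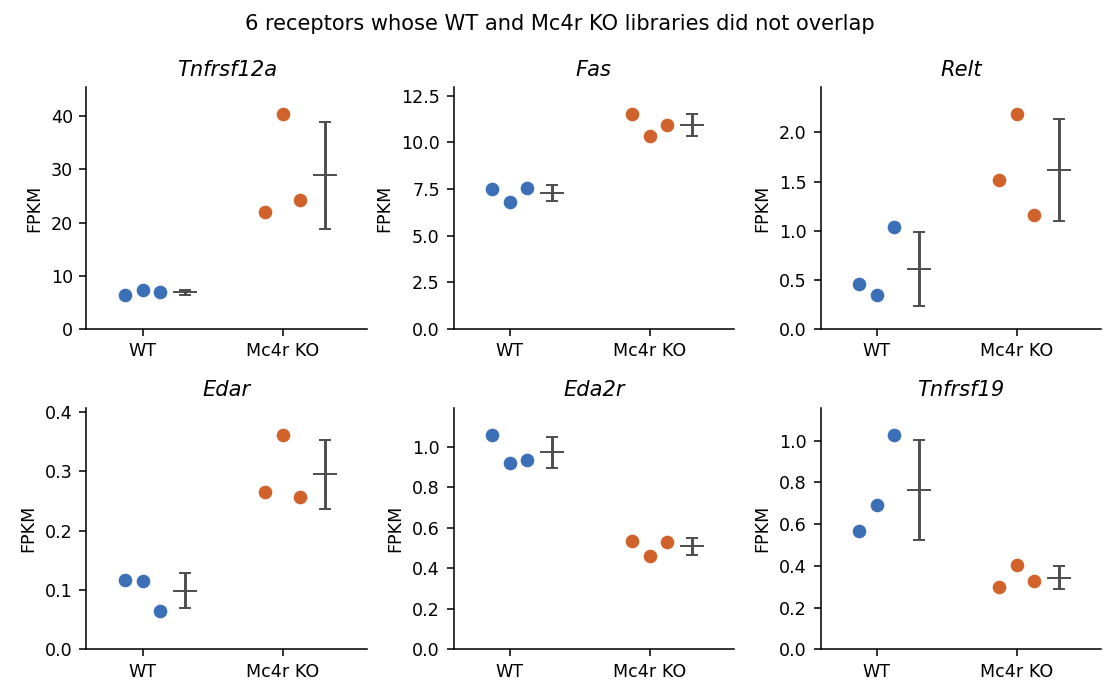
FPKM per library of 6 receptors whose WT (blue) and Mc4r KO (orange) libraries did not overlap and whose unadjusted p was under 0.05, on axes that start at 0, with the group mean and SD in dark grey (n = 3). Tnfrsf12a, Fas, Relt and Edar are higher in Mc4r KO, Eda2r and Tnfrsf19 are lower, and of these Tnfrsf12a passed the limma call.

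The place of Tnfrsf12a among the receptors differed between the groups. In WT it ranked 5, 4 and 4 of the 28 receptors by FPKM and held 10.3%, 10.9% and 10.2% of the summed receptor level. In Mc4r KO it ranked 1 in each library and held 25.7%, 39.9% and 28.2%. Leaving Tnfrsf12a out, the receptors summed to 55.1, 59.1 and 60.8 FPKM in WT and to 63.7, 60.8 and 61.7 FPKM in Mc4r KO, where the 2 groups met at 60.8 FPKM. Its level divided by that of its ligand Tnfsf12 was 1.23, 1.52 and 1.47 in WT and 4.27, 10.6 and 7.02 in Mc4r KO. The level of Tnfsf12 is limited by its shared exon bases, so these ratios are uncertain.

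**Figure D3:**
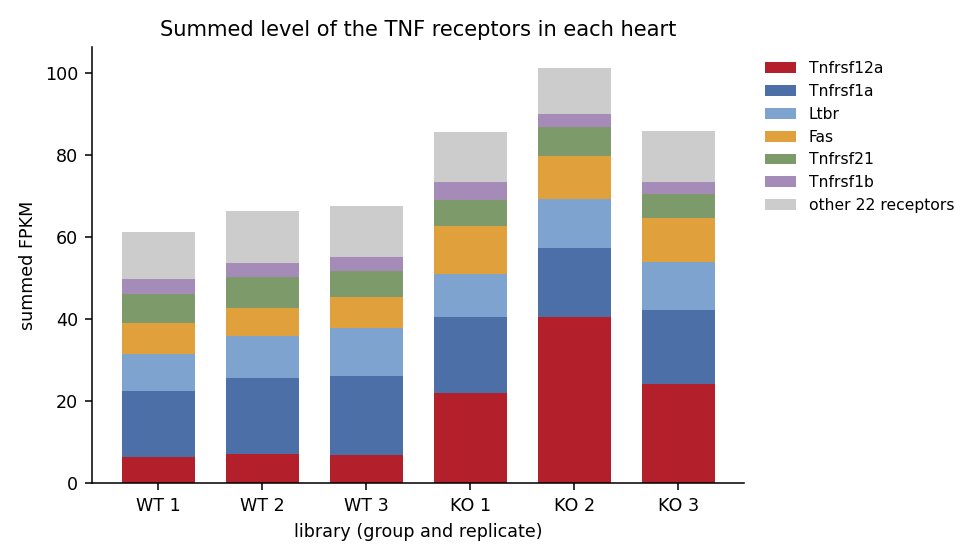
Summed FPKM of the 28 TNF receptors in each of the 6 libraries as stacked bars from 0, with 6 receptors in colour and the other 22 in grey. The Tnfrsf12a segment grows from between 10.2% and 10.9% of the bar in WT to between 25.7% and 39.9% in Mc4r KO, while the rest of the bar spans 55.1 to 63.7 FPKM over all libraries.

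Fas (chromosome 19, 34290659 to 34327770, plus strand) encodes the death receptor of Fas ligand. It was at 7.52, 6.80 and 7.53 FPKM in WT and 11.5, 10.3 and 10.9 FPKM in Mc4r KO. The groups were well separated, with a log2 fold change of 0.58 (SE 0.09, 95% interval 0.37 to 0.79), but the limma adjusted p was 0.0514 and the fold change was under the limit for a call. Over 19 other settings its log2 fold change ran from 0.39 to 0.62 and its adjusted p from 0.0183 to 0.292, and it was called in 0 of them. The lowest log2 fold change, 0.39, came from scaling outside the mitochondrial chromosome.

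Relt encodes a receptor without a death domain found mainly in lymphoid tissue. It was at 0.454, 0.340 and 1.04 FPKM in WT and 1.51, 2.19 and 1.16 FPKM in Mc4r KO. WT replicate 3 lay just under the lowest Mc4r KO library. The log2 fold change was 1.36 (SE 0.39, 95% interval 0.44 to 2.27, limma adjusted p = 0.125). Without WT replicate 3 it was 1.76 with an adjusted p of 0.0231, and with the mitochondrial share as a covariate it was 0.58 with an adjusted p of 0.764.

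Edar, the ectodysplasin receptor that guides the development of hair, teeth and sweat glands, was at 0.117, 0.115 and 0.0646 FPKM in WT and 0.266, 0.362 and 0.257 FPKM in Mc4r KO. These levels rest on 6, 6 and 4 reads against 15, 20 and 15 reads, and the groups did not overlap. The log2 fold change was 0.99 (SE 0.35, 95% interval 0.17 to 1.81, limma adjusted p = 0.176) on the scale of log2(FPKM + 0.1), which understates differences of genes this low.

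Eda2r (chromosome X, 97333840 to 97377216, minus strand) encodes the receptor of the EDA-A2 form of ectodysplasin and lay lower in Mc4r KO. Its level was 1.06, 0.922 and 0.937 FPKM in WT and 0.536, 0.458 and 0.529 FPKM in Mc4r KO. The spread within each group was small beside the distance between them, and the log2 fold change was -0.82 (SE 0.18, 95% interval -1.24 to -0.40, limma adjusted p = 0.0854). It was called lower by limma voom on the recovered reads (-0.93, adjusted p = 0.0369), with array weights (-0.81, adjusted p = 0.0435) and when limma was run on protein-coding genes alone (-0.82, adjusted p = 0.0454).

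Tnfrsf19 (TROY), a receptor of the embryonic nervous system and hair follicle, was at 0.569, 0.691 and 1.03 FPKM in WT and 0.299, 0.403 and 0.329 FPKM in Mc4r KO. All WT libraries lay above all Mc4r KO libraries, with WT replicate 3 highest, and the log2 fold change was -0.93 (SE 0.27, 95% interval -1.56 to -0.30, limma adjusted p = 0.125). Without WT replicate 3 it was -0.72 (adjusted p = 0.137). The death receptor Tnfrsf10b, which binds Tnfsf10, was at 0.976, 0.856 and 0.668 FPKM in WT and 0.697, 0.435 and 0.343 FPKM in Mc4r KO. The groups overlapped in Mc4r KO replicate 1, with a log2 fold change of -0.69 (95% interval -1.34 to -0.03, limma adjusted p = 0.222), and 6.21% of its 50-base words occur in other genes.

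The fibroblast markers, taken as the whole list of 7, summed to 236 to 258 FPKM in WT and 181 to 211 FPKM in Mc4r KO, with 5 markers at a log2 fold change below 0 and 2 above (Col1a1, 0.44, and Col1a2, 0.03). Dcn, Lum and Pdgfra were lower in every Mc4r KO library, and the other 4 markers overlapped. The sum moved in the same direction as Eda2r and Tnfrsf19, and its part in their levels was not tested. In bulk tissue, fewer cells of a type and less RNA per cell cannot be told apart.

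The upstream sequences of Tnfrsf12a, Fas and Eda2r are shown because these were the receptors with the lowest unadjusted p. Each line gives the 250 bases before the RefSeq start site in GRCm38.p6, read 5′ to 3′ on the strand of the gene, at chr17:23677450-23677699 (minus), chr19:34290409-34290658 (plus) and chrX:97377210-97377459 (minus). Capitals mark matches, on either strand, to the GC box GGGCGG, the AP-1 site TGANTCA, the E-box CACGTG, the TATA box TATAAA or the CCAAT box CCAAT.
Tnfrsf12a: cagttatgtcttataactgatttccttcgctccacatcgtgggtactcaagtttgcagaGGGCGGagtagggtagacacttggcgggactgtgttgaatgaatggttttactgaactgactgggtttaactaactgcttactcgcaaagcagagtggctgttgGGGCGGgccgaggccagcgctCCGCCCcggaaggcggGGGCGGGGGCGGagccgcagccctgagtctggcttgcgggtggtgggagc
Fas: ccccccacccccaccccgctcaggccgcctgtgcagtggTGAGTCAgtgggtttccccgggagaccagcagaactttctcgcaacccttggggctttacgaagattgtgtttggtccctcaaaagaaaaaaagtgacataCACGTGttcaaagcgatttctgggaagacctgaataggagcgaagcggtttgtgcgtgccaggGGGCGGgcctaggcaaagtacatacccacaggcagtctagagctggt
Eda2r: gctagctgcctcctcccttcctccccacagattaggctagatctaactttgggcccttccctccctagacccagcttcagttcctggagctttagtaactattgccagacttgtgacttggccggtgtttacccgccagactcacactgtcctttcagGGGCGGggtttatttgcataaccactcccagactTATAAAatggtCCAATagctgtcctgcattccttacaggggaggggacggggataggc

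The Tnfrsf12a window held 5 GC boxes, of which 2 directly adjoin each other, and no other motif searched. The Fas window held 1 AP-1 site, 1 E-box and 1 GC box. The Eda2r window held 1 GC box, 1 TATA box and 1 CCAAT box. Promoter windows were found for 36 of the 45 genes, 40 windows in all. A GC box was present in 19 of these 40 windows and in 32.7% of all 32851 RefSeq windows of this length. An AP-1 site was present in 6 of the 40 and in 6.75% of all windows, an E-box in 5 and in 6.02%, a TATA box in 7 and in 12.4%, and a CCAAT box in 6 and in 33.8%. The NF-kappaB consensus was matched in 3 of the 40 windows, those of Ltb, Tnfrsf8 and Tnfrsf9, and in 3.90% of all windows. These matches describe the letters of each window only.

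**Figure D4:**
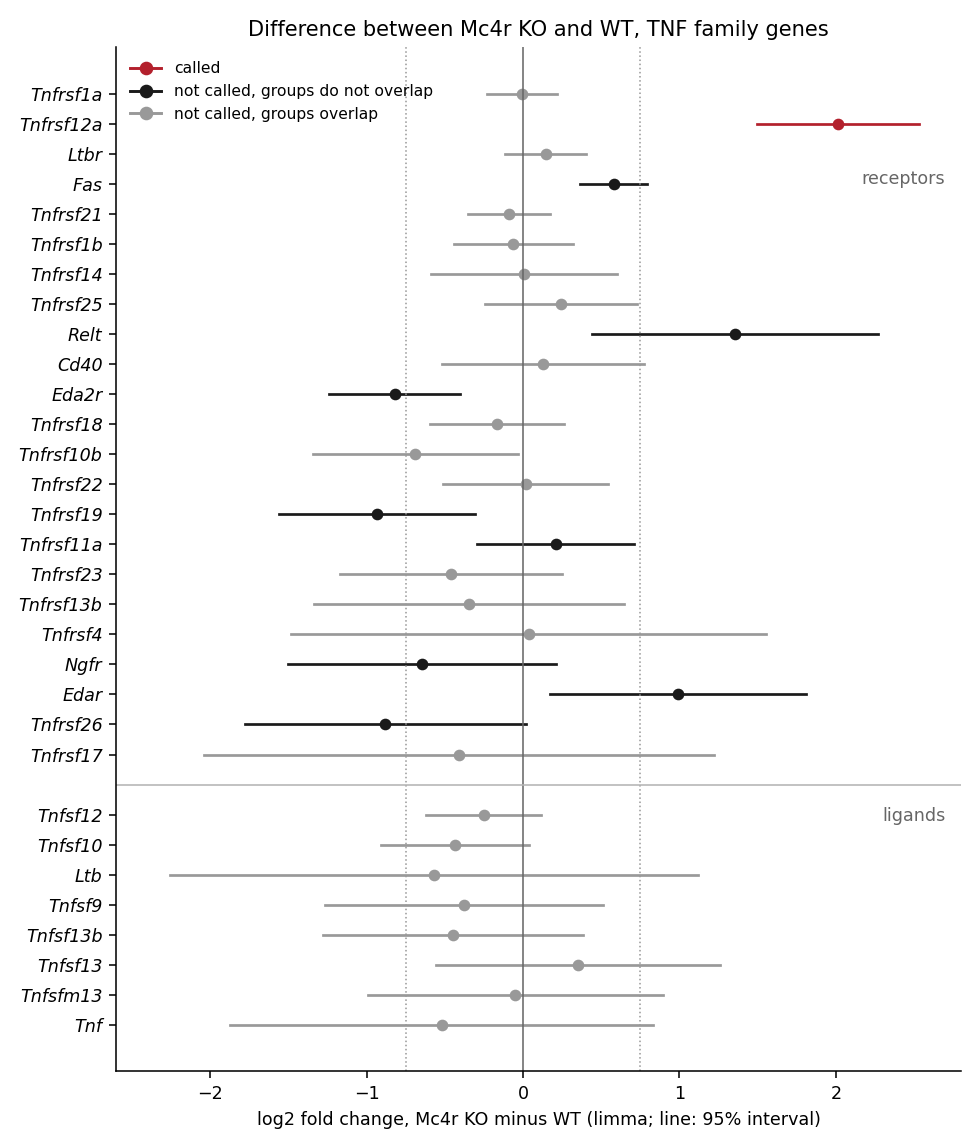
Log2 fold change of Mc4r KO minus WT (x axis) with its 95% interval from limma for the 31 tested TNF family genes, ordered by mean FPKM within receptors and ligands, with dotted lines at 0.75 on either side of 0. Tnfrsf12a, in red, is the 1 gene called, and the widest intervals are those of Ltb, Tnfrsf17 and Tnfrsf4, which lie under 1 FPKM.

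The other receptors of high level were close in both groups. Tnfrsf1a, the main receptor of TNF and a death receptor, was the receptor of highest level in WT at 16.1, 18.4 and 19.3 FPKM, and was at 18.5, 17.0 and 17.9 FPKM in Mc4r KO. Its groups overlapped fully, and the 95% interval of the log2 fold change ran from -0.23 to 0.21. Ltbr, the lymphotoxin beta receptor, was at 9.16, 10.4 and 11.6 FPKM in WT and 10.7, 11.9 and 11.7 FPKM in Mc4r KO (95% interval -0.11 to 0.40). Tnfrsf21 (death receptor 6) was at 6.94, 7.46 and 6.49 FPKM in WT and 6.54, 7.22 and 5.87 FPKM in Mc4r KO (95% interval -0.35 to 0.17). Tnfrsf1b, the second TNF receptor, which lacks a death domain, was at 3.70, 3.56 and 3.38 FPKM in WT and 4.30, 3.17 and 2.86 FPKM in Mc4r KO (95% interval -0.44 to 0.32). For these 4 receptors the intervals exclude a difference as large as the 0.75 needed for a call.

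Tnfrsf14, the receptor of Tnfsf14, had a mean of 2.35 ± 0.603 FPKM in WT and 2.38 ± 0.655 FPKM in Mc4r KO (SD, n = 3). Tnfrsf25, a death receptor of T cells, had 1.81 ± 0.409 and 2.15 ± 0.427 FPKM. Cd40, which antigen-presenting cells use to receive help from T cells, had 0.722 ± 0.132 and 0.821 ± 0.288 FPKM, and Tnfrsf18, a costimulatory receptor of regulatory T cells, had 0.780 ± 0.0539 and 0.686 ± 0.0866 FPKM. In these 4 receptors the groups overlapped. Tnfrsf11a (RANK) was above all WT libraries in each Mc4r KO library, at 0.538, 0.528 and 0.552 FPKM against 0.521, 0.384 and 0.461 FPKM, a small distance with a limma adjusted p of 0.607. Ngfr, the neurotrophin receptor with a death domain, was at 0.267, 0.404 and 0.256 FPKM in WT and 0.150, 0.0955 and 0.253 FPKM in Mc4r KO, below all WT libraries by a narrow margin (adjusted p = 0.364 by limma).

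The 3 tested receptors classed here as decoys lie close together on chromosome 7. Tnfrsf22 and Tnfrsf23 bind Tnfsf10 without a death signal and share 27.4% and 19.3% of their 50-base words with each other or with further genes, so their levels are uncertain. Tnfrsf22 had a mean of 0.613 FPKM in both groups, and Tnfrsf23 had 0.590 ± 0.230 FPKM in WT and 0.387 ± 0.0744 FPKM in Mc4r KO (SD, n = 3). Tnfrsf26, their relative, was at 0.242, 0.216 and 0.255 FPKM in WT and 0.120, 0.102 and 0.0387 FPKM in Mc4r KO, from at most 14 reads in a library. Its groups did not overlap, and the log2 fold change was -0.88 (95% interval -1.78 to 0.02, limma adjusted p = 0.247). Tnfrsf11b (osteoprotegerin), the soluble decoy of Tnfsf11, had 1, 11 and 2 reads in WT and 2, 5 and 2 reads in Mc4r KO and was not tested.

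The receptors of B cells were low throughout. Tnfrsf13b (TACI) was at 0.175, 0.245 and 0.559 FPKM in WT and 0.136, 0.255 and 0.264 FPKM in Mc4r KO. Tnfrsf17 (BCMA) had 4, 0 and 2 reads against 2, 1 and 0 reads, and Tnfrsf13c, the BAFF receptor, had 6, 0 and 4 reads against 1, 1 and 0 reads. The groups overlapped for all 3 receptors. The 8 B cell markers summed to between 3.07 and 5.02 FPKM in WT and between 1.85 and 2.30 FPKM in Mc4r KO, with all 6 tested markers at a log2 fold change below 0 and Cd79b and Fcer2a lower in every Mc4r KO library, and their part in the levels of these receptors was not tested. The defining markers Pax5 and Cd22 were too low to test.

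The costimulatory receptors of T cells were near the limit of detection. Tnfrsf4 had 7, 6 and 1 reads in WT and 9, 1 and 6 reads in Mc4r KO. Cd27 had 1, 1 and 5 reads against 3, 3 and 5 reads, Tnfrsf9 had 1, 0 and 2 against 3, 3 and 2 reads, and Tnfrsf8 had 3, 1 and 1 against 2, 0 and 0 reads. The 10 T cell markers summed to between 1.25 and 3.27 FPKM in WT and between 1.24 and 3.05 FPKM in Mc4r KO, so these ranges overlapped. Of the 6 T cell markers tested, 3 had a log2 fold change above 0 and 3 below, and Cd28 was lower in every Mc4r KO library. Macrophage markers, a list of 12, summed to between 100.5 and 173 FPKM in WT and between 131 and 168 FPKM in Mc4r KO, with 5 markers at a log2 fold change above 0 and 7 below. Csf1r, Cd68 and Mrc1 were lower and Cd14 was higher in every Mc4r KO library. The 6 neutrophil markers summed to between 1.57 and 14.6 FPKM in WT, highest in WT replicate 3, and between 1.26 and 2.88 FPKM in Mc4r KO, with Ly6g at 0 in every library. The ranges of the groups also overlapped for natural killer cell, endothelial, smooth muscle and Schwann cell markers, and the 5 adipocyte markers summed to between 0.467 and 1.02 FPKM in WT and between 0.0283 and 0.328 FPKM in Mc4r KO, with Lep at 0.

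Split by their inner domain, the 7 receptors with a death domain were all tested, and 3 had a log2 fold change above 0 and 4 below, with a median of -0.01. Of the 17 receptors that signal without a death domain 13 were tested, with 7 above 0, 6 below and a median of 0.01, and this class held Tnfrsf12a. Over all 23 tested receptors the median log2 fold change was -0.01, the same to 2 decimals as over all tested genes.

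Set beside their ligands, most receptors were at higher levels. Of 20 ligand and receptor pairs, the receptor had the higher FPKM in all 6 libraries for 13 pairs and the ligand in all 6 for 3. The 3 pairs led by the ligand were Tnfsf10 with Tnfrsf10b, Tnfsf9 with Tnfrsf9, and Tnfsf13b with Tnfrsf13c. Fas and its ligand showed a wide distance, with a mean of 7.29 FPKM for Fas and 0 for Fasl in WT and 10.9 and 0.0333 FPKM in Mc4r KO. Tnfsf12 and Tnfrsf12a were the 1 pair in which both genes had at least 4 FPKM in both group means. For this pair the order in WT depends on the level of Tnfsf12, which is uncertain because of its shared exon bases. All pairs are compared by transcript levels in whole tissue, and which cells make each partner was not measured.

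Inside the cell, the genes that carry the signal were measured by a list of 57 adaptors, kinases, NF-kappaB subunits and caspases, all of which were tested. By limma 0 of the 57 were called, and by limma voom 0, while 9 had an unadjusted p under 0.05, of which 3 were higher and 6 lower, beside 20.9% of all tested genes. The median log2 fold change was -0.06, with 21 genes above 0 and 36 below. In 1 gene all Mc4r KO libraries lay above WT and in 8 genes all lay below, beside 14.1% and 12.4% of all tested genes. Tab1, a partner of the kinase TAK1, was at 4.33, 4.99 and 6.08 FPKM in WT and 7.80, 7.50 and 8.25 FPKM in Mc4r KO (log2 fold change 0.62, limma adjusted p = 0.0871). Map3k7, which encodes TAK1, was at 12.0, 12.6 and 10.1 FPKM in WT and 8.87, 8.17 and 9.59 FPKM in Mc4r KO (log2 fold change -0.38, adjusted p = 0.136 by limma).

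Relb and Map3k14 were also without overlap and among the signalling genes of lowest p. Relb, a subunit of the noncanonical NF-kappaB pathway, was at 2.24, 2.22 and 2.39 FPKM in WT and 1.59, 1.81 and 1.44 FPKM in Mc4r KO (log2 fold change -0.48, limma adjusted p = 0.120). Map3k14, the kinase that starts this pathway, was at 1.41, 1.16 and 0.995 FPKM in WT and 0.757, 0.724 and 0.875 FPKM in Mc4r KO (log2 fold change -0.53, limma adjusted p = 0.174). Neither gene passed the test.

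Of 44 genes known to respond to TNF, 38 were tested, and 1 was called higher and 0 lower by limma, beside 0.316% and 0.144% of all tested genes. The called gene was Gadd45b, which encodes a stress sensor that restrains JNK signalling. It was at 3.08, 3.59 and 2.99 FPKM in WT and 6.69, 5.67 and 5.57 FPKM in Mc4r KO, with no overlap, and its log2 fold change was 0.87 (SE 0.12, limma adjusted p = 0.0430). The call was lost in each fit without WT replicate 1, WT replicate 2 or any 1 Mc4r KO library, and it was kept without WT replicate 3. The list as a whole had 16 genes above 0 and 22 below, a median log2 fold change of -0.01, and 8 genes with an unadjusted p under 0.05, of which 5 were higher and 3 lower, beside 20.9% of all tested genes.

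Among the other response genes without overlap, Sod2, the mitochondrial superoxide dismutase, was at 47.7, 50.5 and 52.3 FPKM in WT and 60.4, 65.7 and 57.4 FPKM in Mc4r KO (log2 fold change 0.29, limma adjusted p = 0.133). Tnfaip2 was at 5.86, 7.10 and 8.95 FPKM in WT and 9.48, 12.6 and 10.6 FPKM in Mc4r KO (log2 fold change 0.58, limma adjusted p = 0.134). The chemokine genes Cxcl9 and Ccl7 lay on the other side. Cxcl9 was at 3.72, 3.53 and 5.47 FPKM in WT and 2.78, 0.982 and 0.579 FPKM in Mc4r KO (log2 fold change -1.73, limma adjusted p = 0.124), and limma voom called it lower. Ccl7 was at 3.19, 2.69 and 3.59 FPKM in WT and 1.85, 2.63 and 1.17 FPKM in Mc4r KO (log2 fold change -0.78, limma adjusted p = 0.179). Nfkbia, which encodes the NF-kappaB inhibitor that is itself a target of the pathway, had a mean of 31.1 FPKM in WT and 31.7 FPKM in Mc4r KO, and this gene was chosen after its values were seen.

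**Figure D5:**
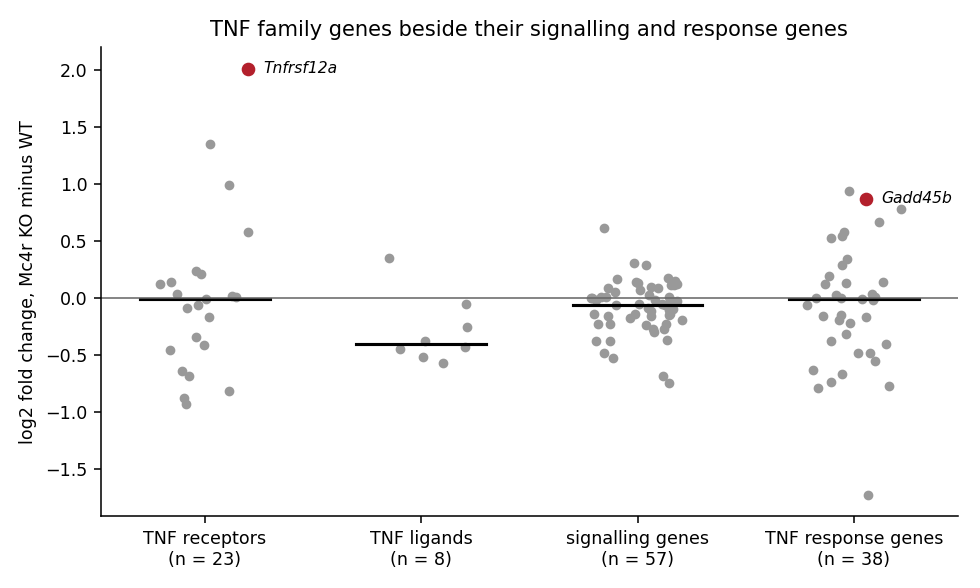
Log2 fold change of Mc4r KO minus WT (y axis) for each tested gene of 4 groups, with 1 point per gene, the group median as a black line and called genes in red. Tnfrsf12a (2.01) and Gadd45b (0.87) are the 2 called genes. The medians of receptors, signalling genes and response genes lie between -0.06 and -0.01, and that of the 8 tested ligands lies at -0.40. Of these ligands Tnf, Tnfsf9, Tnfsf13, Tnfsfm13 and Ltb had a mean of under 10 reads per library.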

How the data were processed

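Polyadenylated RNA from 6 mouse hearts, 3 WT and 3 Mc4r KO, was sequenced with 1 library per mouse. Per the labels, the submitters' processing notes name CASAVA, HISAT2 2.0.5 and the mm10 genome. Per the study's methods, reads were counted on genes with featureCounts, and the authors deposited FPKM per gene and library. The annotation release and the strand setting are not given in the sources used here. Reads were recovered from FPKM and gene length, and 100% of the values came out whole (tolerance 0.1 read). The FPKM of 3 reads on 1 kb was 0.213 in WT replicate 1 and 0.176 in WT replicate 3, so the deposited values carry a scaling factor per library beyond the reads on genes. Their median-of-ratios factor was 1 in each library, so scaling by it here changed no value.

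A mean FPKM of 0.1 or more was required, which left 18035 genes for limma 3.58.1 (R 4.3.3) on log2(FPKM + 0.1) with the empirical Bayes trend, no covariate, two-sided p-values and Benjamini-Hochberg adjustment over all of them. Genes were called at an adjusted p under 0.05 with a log2 fold change beyond 0.75 in either direction. The procedure was tested on simulated data. Beyond the limit on mean FPKM, no floor on reads was applied, so genes with few reads were also tested. Values in every library are given for called genes, for genes without overlap and an unadjusted p under 0.05, and for the 6 receptors and 6 ligands of highest level. For the 2 lists of signalling and response genes, they are given for called genes and the 5 of lowest p without overlap, except 1 gene that is not reported here. Further values are given to account for each gene. The genes, the lists and the cell type markers were chosen with earlier results of these data known.

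Exon overlaps and shared 50-base words came from GENCODE M21, which held 99.93% of the identifiers. Promoters came from RefSeq on GRCm38.p6. Alternatives covered the pseudocount, filter, scaling, limma voom on recovered reads, replicate block, mitochondrial share, array weights, protein-coding genes alone, the fold limit and leaving out each library.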

Additional observations from a re-analysis of the deposited data

How the results depend on the processing

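Under the 19 alternatives, Tnfrsf12a kept its direction in 19 (log2 fold change 1.75 to 2.19, adjusted p 0.00324 to 0.206) and was called in 12. FPKM as deposited repeated the same fit, because the scaling factors were 1, and lifting the fold limit changed only the cut for a call. These could not alter its direction. With the changed filters, protein-coding genes alone or the replicate block its log2 fold change also stayed at 2.01. Fas in 19 alternatives, and Tnfrsf19 and Edar in the 18 that tested them, kept their direction and were called in 0. Against 1 TNF family gene called higher by limma, 0 were called with no filter on low values or with the mitochondrial share as a covariate, and 2 with array weights (Tnfrsf12a and Relt). Against 0 called lower by limma, 1 (Eda2r) was called with limma voom, with array weights and with protein-coding genes alone. Leaving out 1 library at a time gave 0 to 2 called higher, with 2 without WT replicate 3, 1 without Mc4r KO replicate 2 and 0 in the other 4 fits, and 0 called lower in each. No signalling gene was called under any alternative run. Against 1 response gene called, 0 were called with a pseudocount of 1, no filter on low values, quantile normalization, scaling outside the mitochondrial chromosome or the mitochondrial covariate, and 2 with limma voom (Gadd45b and Cxcl9). Leaving out 1 library gave 0 to 4, with 4 (Cebpd, Gadd45b, Irf7 and Ccl2) without WT replicate 3 and 0 in each of the other 5 fits. Over all genes, calls went from 83 to 726 without WT replicate 3, to between 7 and 14 without any other library, to 317 with limma voom, to 435 with array weights, to 204 with protein-coding genes alone and to 2 with the mitochondrial covariate. Scaling outside the mitochondrial chromosome shifted the median over all genes from -0.01 to -0.19 on the log2 scale. The cause of these changes was not tested.

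The replicate numbers do not pair the mice by any label, and deviations of same-numbered libraries correlated at -0.06, -0.01 and -0.05. With the replicate block, 0 TNF family genes, 0 signalling genes and 0 response genes were called, and Tnfrsf12a had an adjusted p of 0.0712 by limma. Over all genes the block gave 11 calls.

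Some genes near 0 changed sign, and so did Ltb (-0.57 by limma), which rests on between 1 and 22 reads per library. Leaving out 1 library at a time, Tnfrsf1a ran from a log2 fold change of -0.0840 to 0.0463 (above 0 without WT replicate 2, WT replicate 3 or Mc4r KO replicate 2), Tnfrsf1b from -0.226 to 0.0603 and Ltb from -1.17 to 0.0258 (both above 0 without Mc4r KO replicate 3). Ltbr was at -0.0498 with scaling outside the mitochondrial chromosome and -0.0623 with the mitochondrial covariate, where Tnfrsf21 was at 0.0757 and Tnfrsf1b at 0.00862. Depth limits 22 of the 45 genes, which had a mean of under 10 reads.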
